A study of Mus musculus with 16 samples.

Results

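A set of 10 enzymes of redox and xenobiotic defence was followed across primary mouse lung fibroblasts that had received different small interfering RNAs (siRNAs). The genes were Akr1c18, Fmo1, Fmo2, Nqo1, Hmox1, Gclc, Gclm, Txnrd1, Srxn1 and Gda, taken as every non-control probe that carries one of these gene names. They had 13 of the 55681 non-control probes of the array, and 9 of the 10 genes were among the 22644 genes that passed the filter on dim probes. Fmo1 was below background on nearly every array and did not pass. The genes were selected on their levels in these same arrays, with all 4 groups in view, so their levels, differences and calls are a description and carry no p-value.

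Gene expression was measured on 16 one-colour microarrays, with 4 arrays for each of 4 groups. The cells had been passaged 3 or more times and were collected 48 hours after transfection with an siRNA against Lox (siLox), against Loxl1 (siLoxL1), against Loxl2 (siLoxL2), or with a scrambled siRNA (scr), so that the scr cells were transfected too. Lox, Loxl1 and Loxl2 encode lysyl oxidases, secreted copper enzymes of the matrix that oxidise lysines so that collagen and elastin fibres become cross-linked. The title of the series speaks of exogenous expression, whereas the sample labels describe siRNA transfections, and the groups here follow the labels. Mouse strain, sex and age, and whether the replicates of a group were separate cultures, were not stated, and the p-values of other genes below therefore measure the spread between these samples only.

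Slide 1 carried siLox and scr, and slide 2 carried siLoxL1 and siLoxL2, which makes siLox against scr and siLoxL1 against siLoxL2 the comparisons within a slide. In a comparison of siLoxL1 or siLoxL2 with scr, the siRNA and the slide cannot be told apart. Each group also filled 1 row of its slide, scr and siLoxL1 row 1 and siLox and siLoxL2 row 2. Within a slide, the siRNA and the slide row therefore cannot be told apart. The share of non-control spots that the scanner marked as well above background was 49.2% to 52.3% on slide 1, against 60.4% to 63.1% on slide 2. Each targeted gene was lower in its own group than in scr. Lox was at 13.2% of the scr level in siLox (log2 difference -2.92 ± 0.31, limma adjusted p = 0.0032) and Loxl1 at 44.9% of the siLoxL2 level in siLoxL1 (-1.15 ± 0.06, limma adjusted p = 2.16e-04). In siLox, Loxl2 (-0.71 ± 0.17, limma adjusted p = 0.0248) and Loxl1 (-0.49 ± 0.13, limma adjusted p = 0.0347) were also lower than in scr, past the threshold in 3 and 2 of 8 fits that left out an array. Loxl2 was below scr in siLoxL2 (-1.06 ± 0.15, with -1.59 and -1.47 at its other probes) and in siLoxL1 (-0.76 ± 0.14, with -1.21 and -1.12 at its other probes), and the difference between siLoxL1 and siLoxL2 missed the threshold (0.30 ± 0.08, limma adjusted p = 0.0551). Lox was above scr in siLoxL1 (0.68 ± 0.11, with 0.47 at its other probe) and in siLoxL2 (0.83 ± 0.08, with 0.44). Both differences of Lox were past the threshold in 8 of 8 fits that left out an array. All 10 fibroblast markers were above background on every array. Of the 9 epithelial markers listed, Epcam, Cdh1, Sftpc, Sftpb, Nkx2-1 and Foxj1 were above background on none. The other 3, Krt8, Krt18 and Scgb1a1, were above background on every array of scr, siLoxL1 and siLoxL2. In siLox 2 of them were above background on every array.

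Cells keep these enzymes ready against reactive oxygen and foreign chemicals. The transcription factor NRF2 (gene Nfe2l2) is held back by KEAP1, which has it degraded, until oxidants or electrophiles modify KEAP1. NRF2 then pairs with a small MAF protein and binds antioxidant response elements (AREs) near genes such as Nqo1, Hmox1, Gclc, Gclm, Txnrd1 and Srxn1, and BACH1 competes for the same elements, at Hmox1 above all. Gclc and Gclm encode the catalytic and the modifier subunit of glutamate-cysteine ligase, which makes the precursor of glutathione. Txnrd1 encodes the cytosolic thioredoxin reductase, Srxn1 sulfiredoxin, which repairs over-oxidised peroxiredoxins, Nqo1 a quinone reductase, and Hmox1 the inducible heme oxygenase. Fmo1 and Fmo2 are flavin-containing monooxygenases, which oxidise soft nucleophiles in drugs, and Fmo2 is known as the lung form. Akr1c18 is an aldo-keto reductase that reduces progesterone to its inactive 20-alpha-hydroxy form, and Gda is guanine deaminase, which turns guanine into xanthine.

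The promoters of the 4 genes that the differences turn on are shown here for their ARE-like letters. Each window runs from 250 bases before to 50 bases after a transcript start of RefSeq (assembly GRCm38.p6). The ARE core was searched on both strands as TGACNNNGC or TGAGNNNGC, and its matches stand in capitals. For Fmo2 only the window with a match is shown, and its other window (chr1:162898709-162899008) held no match. The window of Akr1c18 is chr13:4150597-4150896 on the minus strand, that of Fmo2, the second of its windows, chr1:162898444-162898743 on the minus strand, that of Gda chr19:21472612-21472911 on the minus strand and that of Srxn1 chr2:152105274-152105573 on the plus strand.
Akr1c18: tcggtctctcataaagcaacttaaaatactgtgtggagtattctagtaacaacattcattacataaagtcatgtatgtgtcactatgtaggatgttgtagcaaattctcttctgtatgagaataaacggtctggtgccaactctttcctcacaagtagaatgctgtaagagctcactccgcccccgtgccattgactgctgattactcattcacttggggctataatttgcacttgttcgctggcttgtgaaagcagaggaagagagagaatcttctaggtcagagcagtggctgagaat
Fmo2: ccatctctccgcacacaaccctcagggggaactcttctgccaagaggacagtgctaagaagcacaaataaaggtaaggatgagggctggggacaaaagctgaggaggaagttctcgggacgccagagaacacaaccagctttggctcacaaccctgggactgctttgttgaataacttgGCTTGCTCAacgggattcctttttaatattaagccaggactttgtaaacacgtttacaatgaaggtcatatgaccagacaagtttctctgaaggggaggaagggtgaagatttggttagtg
Gda: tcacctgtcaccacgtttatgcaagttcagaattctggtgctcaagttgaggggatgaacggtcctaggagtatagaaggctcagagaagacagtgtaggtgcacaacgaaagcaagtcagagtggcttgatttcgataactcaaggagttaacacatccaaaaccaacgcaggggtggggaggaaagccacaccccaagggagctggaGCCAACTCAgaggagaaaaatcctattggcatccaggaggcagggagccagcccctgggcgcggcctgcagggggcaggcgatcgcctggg
Srxn1: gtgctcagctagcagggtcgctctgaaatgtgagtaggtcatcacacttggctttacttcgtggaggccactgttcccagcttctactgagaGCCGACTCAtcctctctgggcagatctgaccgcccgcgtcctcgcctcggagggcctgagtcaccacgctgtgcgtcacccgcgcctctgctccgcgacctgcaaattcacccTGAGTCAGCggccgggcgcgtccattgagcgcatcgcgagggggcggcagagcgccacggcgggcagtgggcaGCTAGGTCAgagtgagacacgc

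Of the 10 genes, 7 had a promoter in the RefSeq table, with 10 windows between them. An ARE core was in 5 of these windows, each of a different gene, against 27.8% of all 32851 windows of this length. Srxn1 held 3 cores, Fmo2, Gclm, Gda and Txnrd1 held 1 each in one window, and the windows of Akr1c18 and Nqo1 held no such letters. The core of the xenobiotic response element, GCGTG on both strands, was in 5 windows of 3 genes (Srxn1, Gclm and Txnrd1), against 32.4% of all windows. A match says that the letters are there and nothing about binding.

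Gda, Hmox1 and Fmo1 were each read by a pair of probes, and the other genes by 1 probe of 60 bases. Probe positions below are those of the deposited files, in build mm9. The earlier probes of Hmox1 (chr8:77620797-77620856, plus strand) and Fmo1 (chr1:164780212-164780271, minus strand) are shown because their partners lie 966 and 1200 bases further along the transcript and serve as a check on the readings below.
Hmox1: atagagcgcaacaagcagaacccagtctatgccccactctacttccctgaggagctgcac
Fmo1: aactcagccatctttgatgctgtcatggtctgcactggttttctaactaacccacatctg

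Levels are given as the log2 signal of a probe minus the 75th percentile (log2) of the non-control probes of its array, so that 0 is that percentile, and values follow the replicate numbers 1 to 4. They are compared across arrays of the same probe only. A call means a limma p adjusted over all 22644 genes under 0.05, and differences carry the standard error of that fit with 4 arrays per group. In bulk RNA, fewer cells of a type and less RNA per cell cannot be told apart.

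**Figure D1:**
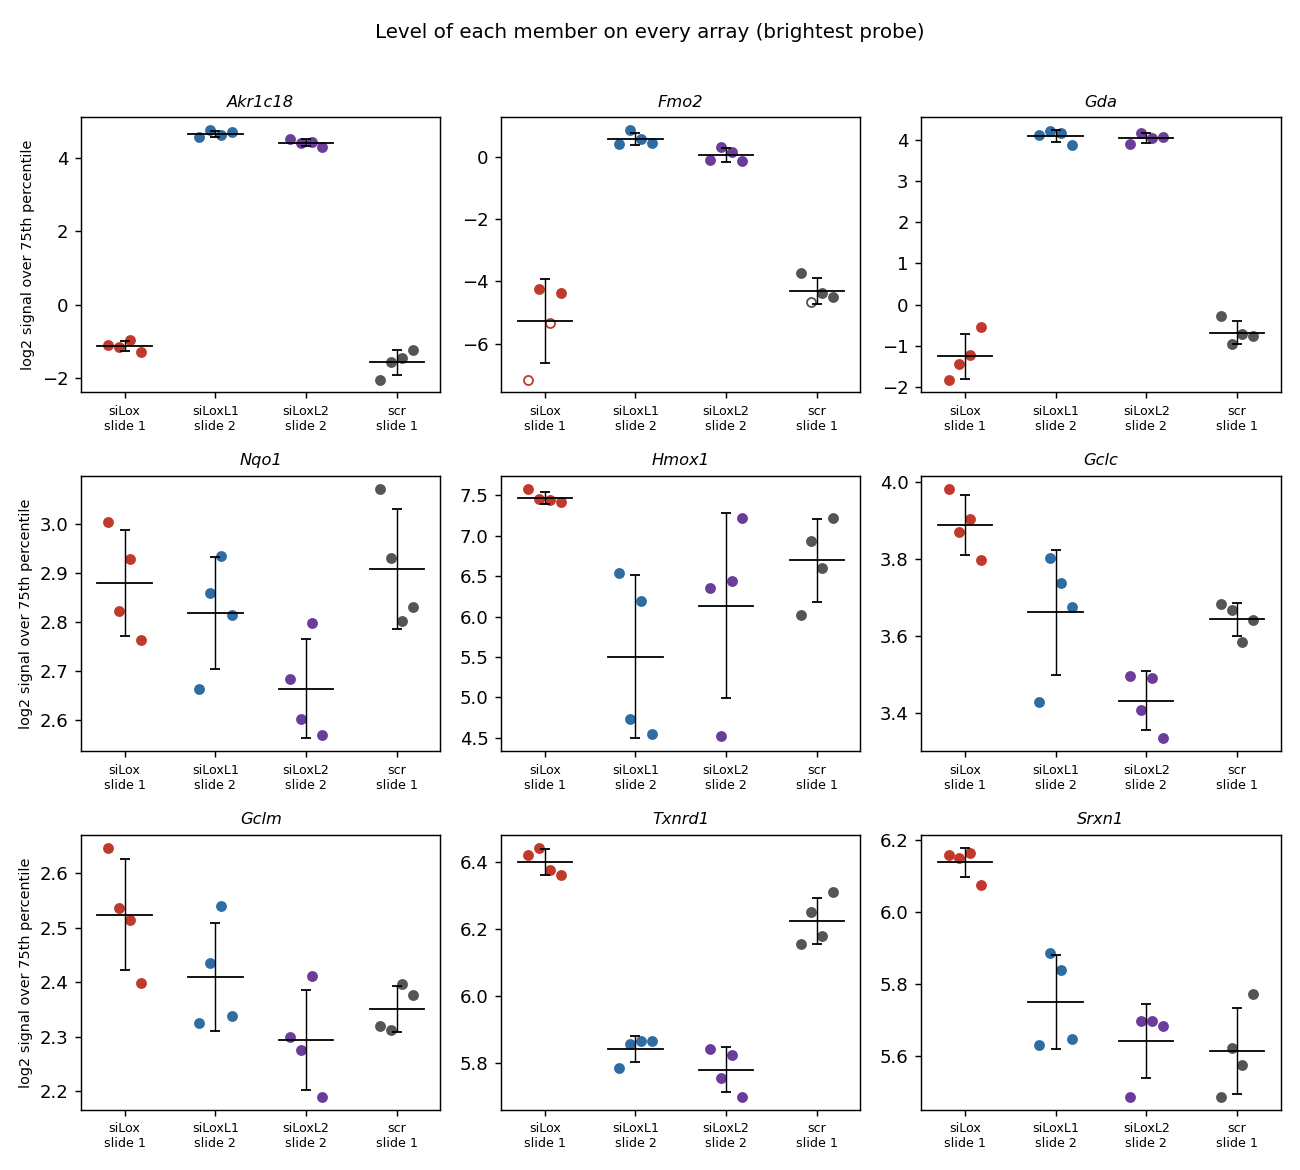
Level of each of the 9 genes that passed the filter on every array (log2 signal over the 75th percentile of the array), in siLox, siLoxL1, siLoxL2 and scr, with the slide under each group; points are arrays (open where not well above background), lines the group mean and bars the SD (n = 4). Akr1c18, Fmo2 and Gda part by slide with no overlap, while Hmox1 spreads over up to 2.69 within a group.

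Akr1c18, Fmo2 and Gda stood far higher on slide 2 than on slide 1. Akr1c18, read on chromosome 13 (chr13:4131895-4131954, minus strand), had levels of -1.11, -1.15, -0.96 and -1.29 in siLox, 4.57, 4.75, 4.61 and 4.69 in siLoxL1, 4.51, 4.39, 4.43 and 4.28 in siLoxL2, and -2.05, -1.57, -1.44 and -1.23 in scr. It was above background on all 16 arrays, and the lowest array of slide 2 lay far above the highest of slide 1. Akr1c18 was 6.23 ± 0.16 higher in siLoxL1 than in scr on the log2 scale, 74.9-fold, and 5.98 ± 0.16 higher in siLoxL2 than in scr, 63.1-fold. Each was the largest of the 22644 differences in its comparison, and the 2 comparisons share the scr arrays.

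Within a slide, Akr1c18 differed little. In siLox against scr it was higher by 0.45 ± 0.17 with arrays that overlap, and it was not called. In siLoxL1 against siLoxL2 it was higher by 0.25 ± 0.06, the 4 siLoxL1 arrays lay above the 4 siLoxL2 arrays, and it was called. That call was kept in 1 of 8 fits that left out an array, the one without siLoxL2 replicate 1, while the difference stayed between 0.21 and 0.29 in all 8. It was also lost with the other scalings tried, at 0.18 to 0.24.

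Fmo2 (chr1:164806827-164806886, minus strand) read -7.16, -4.26, -5.33 and -4.38 in siLox, 0.42, 0.86, 0.56 and 0.43 in siLoxL1, -0.11, 0.31, 0.15 and -0.15 in siLoxL2, and -3.73, -4.66, -4.37 and -4.49 in scr. It was above background on 2 arrays of siLox, on 3 of scr and on every array of slide 2, so that the values on slide 1 lie partly at background and the differences from scr are not exact. They were 4.88 ± 0.20 (29.4-fold) in siLoxL1 and 4.36 ± 0.21 (20.5-fold) in siLoxL2, ranks 10 and 14 among all genes, and with a normexp background correction they were 3.12 and 2.67. In siLoxL1 the 4 arrays lay above those of siLoxL2 (0.52 ± 0.13) without a call. The difference of siLox from scr was -0.97 ± 0.62, or -0.19 with normexp, and siLox replicate 1 stood lowest.

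Gda was read by probes 3452 bases apart on chromosome 19. The brighter one (chr19:21465823-21465882, minus strand) had levels of -1.81, -1.43, -1.21 and -0.53 in siLox, 4.10, 4.21, 4.16 and 3.88 in siLoxL1, 3.90, 4.17, 4.04 and 4.06 in siLoxL2, and -0.28, -0.96, -0.71 and -0.76 in scr. Gda was 4.77 ± 0.15 higher in siLoxL1 than in scr (27.2-fold, rank 11) and 4.72 ± 0.14 higher in siLoxL2 than in scr (26.3-fold, rank 10). The second probe (chr19:21469275-21469334) read -5.52, -5.40, -4.46 and -4.54 in siLox, 0.58, 0.73, 0.70 and 0.59 in siLoxL1, 0.68, 0.83, 0.73 and 0.68 in siLoxL2, and -4.92, -6.06, -4.12 and -4.32 in scr. It was above background on 2 of 4 scr arrays, on 0 of 4 siLox arrays and on every array of slide 2. This probe therefore passed the filter through the groups of slide 2 only, where it is high. Its levels also parted by slide. The differences from scr, 5.50 ± 0.38 in siLoxL1 and 5.58 ± 0.38 in siLoxL2, are not exact.

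In siLoxL1 against siLoxL2 the 2 Gda probes gave 0.05 ± 0.09 and -0.08 ± 0.06, with overlapping arrays at both. In siLox the brighter probe was lower than in scr by -0.57 ± 0.27, without a call. The highest siLox array, replicate 4, lay inside the scr range. Without it the difference was -0.81 and past the threshold, the only 1 of 8 fits that left out an array to pass. Those 8 fits ran from -0.81 to -0.38. The second probe gave -0.13 ± 0.46 for siLox against scr, without a call.

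The relatives of Akr1c18 and Fmo2 given here showed no difference of that size. Akr1c18 lies between Akr1c14 and Akr1c13 in the RefSeq annotation. Akr1c14 was lower than in scr in siLoxL1 (-1.28 ± 0.18, limma adjusted p = 4.13e-04) and in siLoxL2 (-0.90 ± 0.17, limma adjusted p = 0.00274), and Akr1c13 differed by 0.44 ± 0.11, which was called, and by 0.24 ± 0.10, which was not. Over the 4 other Akr1c genes tested, differences from scr ran from -1.28 to 0.67 in siLoxL1 and from -0.90 to 0.25 in siLoxL2. Fmo2 lies between Fmo1 and Fmo6, and its relative Fmo5 differed from scr by 0.43 ± 0.20 in siLoxL1, without a call, and by 0.53 ± 0.17 in siLoxL2, which was called.

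Fmo1 was at background. Its earlier probe was above background on none of the 16 arrays. Its later probe (chr1:164760037-164760096) was above background on 1 array, siLoxL2 replicate 1, at -1.05, while the other siLoxL2 arrays read -7.91 to -7.44. The earlier probe read -8.23 on that same array, so the pair disagreed there.

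Markers of other cells also parted by slide. The summed level of the 6 mesothelial markers (log2) was 3.70 to 3.85 in siLox, 4.38 to 4.50 in siLoxL1, 4.37 to 4.55 in siLoxL2 and 3.69 to 3.80 in scr. The sum hides opposite directions, since 2 of the 6 were higher and 4 lower than in scr by limma in siLoxL1 and likewise 2 and 4 in siLoxL2, with median differences of -1.25 and -1.20. That of the 12 macrophage and leukocyte markers was 4.75 to 5.02 in siLox, 5.14 to 5.24 in siLoxL1, 5.27 to 5.38 in siLoxL2 and 4.61 to 4.93 in scr, with at least 11 of the 12 above background on every array of each group, and 3 were higher and 2 lower than in scr in siLoxL1 and 4 higher in siLoxL2. The 9 epithelial markers summed to 2.43 to 2.56 in siLox, -0.91 to -0.51 in siLoxL1, -0.89 to -0.69 in siLoxL2 and 2.27 to 2.84 in scr. Of these 9, 6 were above background on no array. Of the 3 tested, 2 were lower than in scr and 0 higher in siLoxL1 and in siLoxL2, with median differences of -3.29 and -3.41. The 7 endothelial markers summed to 2.51 to 2.60 in siLoxL1 and 2.54 to 2.65 in siLoxL2. On slide 1 they summed to 1.73 to 2.35 in siLox and 2.24 to 2.51 in scr. Against scr they went both ways, 2 higher and 3 lower in siLoxL1 and 3 higher and 2 lower in siLoxL2. Within slide 1, 4 of 10 fibroblast markers were lower and 0 higher in siLox than in scr (median difference -0.45). Of 6 mesothelial markers 4 were lower and 1 higher (median -0.31). Of 12 macrophage and leukocyte markers 1 was higher and 0 lower (median 0.59). Of 3 epithelial markers tested 1 was higher and 0 lower, and of 6 endothelial markers 0 were called. The part of these cells in the levels of Akr1c18, Fmo2 and Gda, or in the differences of siLox from scr, was not tested.

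Against scr, the NRF2 target enzymes differed by much less than Akr1c18, Fmo2 and Gda did on slide 2. Within slide 1 the scale was alike. In siLox against scr, Hmox1 (0.77) and Srxn1 (0.52) stood beside Akr1c18 (0.45), Fmo2 (-0.97) and Gda (-0.57). The Fmo2 value rests partly on signals at background and was -0.19 with normexp. Of the 9 genes tested in that comparison, Hmox1, Srxn1 and Gclc were called higher and the other 6 were not called. Of all 22644 genes, 11.5% were called higher there, 13.5% lower and 25% in either direction. Hmox1, Srxn1, Gclc, Gclm and Txnrd1 had 4 siLox arrays above the 4 scr arrays, a lack of overlap that 30.6% of all genes showed. Without siLox replicate 1, 2 or 3, or scr replicate 2 or 3, the count was 1, and without scr replicate 4 it was 5. The median difference was 0.18 over the 9 genes and -0.05 over all genes. Since differences of this kind led to the choice of genes, nothing is read from these shares.

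**Figure D2:**
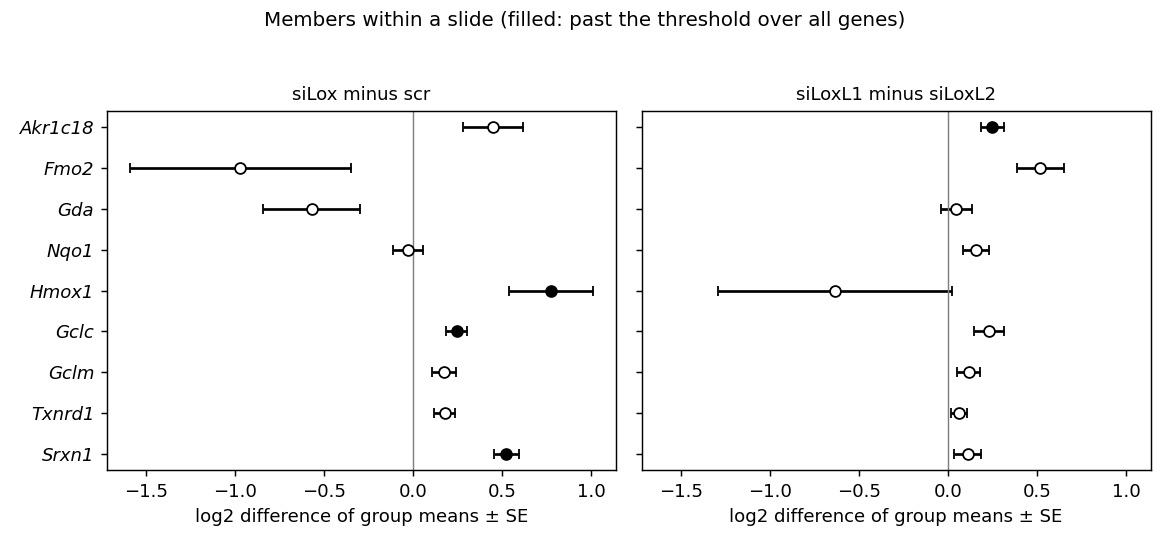
Log2 difference of group means (± SE of the limma fit, n = 4 arrays per group) for the 9 genes in the comparisons within a slide, siLox minus scr (left) and siLoxL1 minus siLoxL2 (right); filled points are past the threshold over all genes. Hmox1 stands at 0.77 in siLox against scr and at -0.63, with a wide bar, in siLoxL1 against siLoxL2.

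Srxn1 (chr2:151937009-151937068, plus strand) had levels of 6.16, 6.15, 6.17 and 6.08 in siLox, 5.63, 5.89, 5.84 and 5.65 in siLoxL1, 5.49, 5.70, 5.70 and 5.68 in siLoxL2, and 5.49, 5.62, 5.58 and 5.77 in scr. The siLox arrays stood above those of the other 3 groups, which overlapped one another. Srxn1 was 0.52 ± 0.07 higher in siLox than in scr, 1.44-fold, and was called in 8 of 8 fits that left out an array. Against scr, the differences of 0.14 ± 0.09 in siLoxL1 and 0.03 ± 0.08 in siLoxL2 were not called and turned to -0.15 and -0.21 after quantile normalization.

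Hmox1 varied widely between the replicates of siLoxL1, siLoxL2 and scr. Its brighter probe (chr8:77624207-77624266, plus strand) read 7.58, 7.45, 7.43 and 7.41 in siLox, 6.54, 4.73, 6.19 and 4.55 in siLoxL1, 6.36, 4.53, 6.44 and 7.22 in siLoxL2, and 6.02, 6.93, 6.60 and 7.22 in scr. The earlier probe, whose sequence is given above, read 4.76, 4.53, 4.66 and 4.56 in siLox, 3.05, 1.77, 2.75 and 1.64 in siLoxL1, 3.24, 1.69, 3.17 and 4.10 in siLoxL2, and 2.93, 3.93, 3.64 and 4.32 in scr. Both probes placed siLoxL1 replicates 2 and 4 and siLoxL2 replicate 2 lowest of the 16 arrays and siLox above all others. The SD of the brighter probe was 0.0745 in siLox, 1.01 in siLoxL1, 1.14 in siLoxL2 and 0.515 in scr. The median SD over all genes was 0.132 in siLox, 0.0928 in siLoxL1, 0.0899 in siLoxL2 and 0.167 in scr. By SD it ranked 44 of 22644 genes in siLoxL1 and 82 in siLoxL2.

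**Figure D3:**
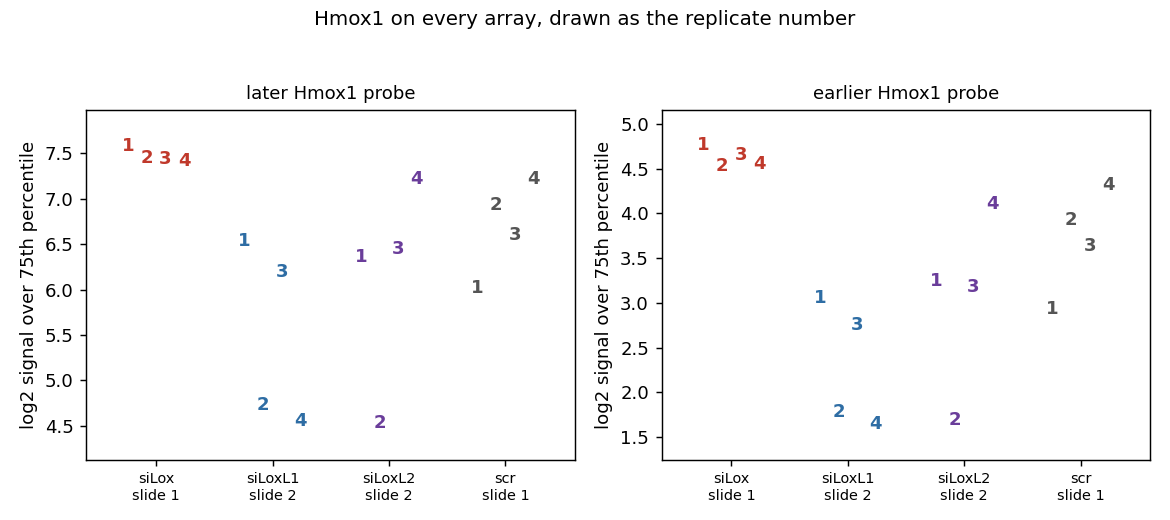
Hmox1 level (log2 signal over the 75th percentile of the array) at its later probe (left) and its earlier probe (right), each array drawn as its replicate number. Both probes give the same arrays as low, replicates 2 and 4 of siLoxL1 and replicate 2 of siLoxL2, while the siLox arrays lie within 0.16 of each other at the later probe.

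Hmox1 was 0.77 ± 0.23 higher in siLox than in scr, 1.71-fold, and 0.92 ± 0.27 higher at the earlier probe. The call of the brighter probe was kept in 2 of 8 fits that left out an array, those without scr replicate 1 (0.55) and without scr replicate 4 (0.95), and was lost without any other one and in the fit of all 16 arrays. Between siLoxL1 and siLoxL2 the difference was -0.63 ± 0.66. Against scr it was -1.19 ± 0.50 in siLoxL1 and -0.56 ± 0.55 in siLoxL2, and none of the 3 was called at the brighter probe, whereas the earlier probe was called in siLoxL1 against scr (-1.40 ± 0.40).

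The subunits of glutamate-cysteine ligase differed by little. Gclc (chr9:77641296-77641355, plus strand) had levels of 3.98, 3.87, 3.90 and 3.80 in siLox, 3.43, 3.80, 3.74 and 3.67 in siLoxL1, 3.50, 3.41, 3.49 and 3.33 in siLoxL2, and 3.68, 3.67, 3.59 and 3.64 in scr. It was 0.24 ± 0.06 higher in siLox than in scr, and this call was lost without any of siLox replicates 1, 2 or 3 or scr replicates 2 or 3. Against scr it differed by 0.02 ± 0.08 in siLoxL1, a direction that turned with the scaling, and was lower in siLoxL2 by -0.21 ± 0.06, which was called.

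Gclm, read by a probe whose 60 bases span 2636 bases of the genome and so cross a splice junction (chr3:121962174-121964809), read 2.65, 2.54, 2.51 and 2.40 in siLox, 2.33, 2.44, 2.54 and 2.34 in siLoxL1, 2.30, 2.28, 2.41 and 2.19 in siLoxL2, and 2.32, 2.31, 2.40 and 2.38 in scr. The siLox arrays lay just above the scr arrays (0.17 ± 0.07) and overlapped siLoxL1 and siLoxL2. Against scr it differed by 0.06 ± 0.06 in siLoxL1 and -0.06 ± 0.06 in siLoxL2, directions that turned with the scaling. Gclm was not called in any of the 4 comparisons.

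Txnrd1 (chr10:82360230-82360289, plus strand) read 6.42, 6.44, 6.38 and 6.36 in siLox, 5.78, 5.86, 5.86 and 5.87 in siLoxL1, 5.84, 5.76, 5.82 and 5.70 in siLoxL2, and 6.16, 6.25, 6.18 and 6.31 in scr. The order was siLox above scr above both groups of slide 2, and siLoxL1 and siLoxL2 overlapped. The difference of siLox from scr, 0.18 ± 0.06, was not called. Txnrd1 was lower than in scr by -0.38 ± 0.06 in siLoxL1 and by -0.44 ± 0.06 in siLoxL2, and both were called in 8 of 8 fits that left out an array.

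Nqo1 (chr8:109912440-109912499, minus strand) had levels of 3.00, 2.82, 2.93 and 2.76 in siLox, 2.66, 2.86, 2.93 and 2.81 in siLoxL1, 2.68, 2.60, 2.80 and 2.57 in siLoxL2, and 3.07, 2.93, 2.80 and 2.83 in scr. All 4 groups lay close to each other. The differences were -0.03 ± 0.08 for siLox against scr and -0.09 ± 0.08 for siLoxL1 against scr. In siLoxL2 the arrays lay below those of scr (-0.25 ± 0.08), a call kept in 3 of 8 fits that left out an array.

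In siLoxL1 against siLoxL2, 1 of the 9 genes was called, Akr1c18, where 8.81% of all genes were called in either direction and 6.1% higher. Akr1c18 and Fmo2 had groups that do not overlap, as 20.3% of all genes did, and 2.7% of all genes were called lower. The count was 1 without siLoxL1 replicate 1 (Gclc in place of Akr1c18) or siLoxL2 replicate 1, and 0 by limma without any other array, with 2 to 4 at an unadjusted p under 0.05. Gclc (0.23 ± 0.08), Nqo1 (0.16 ± 0.07), Gclm (0.12 ± 0.07), Srxn1 (0.11 ± 0.08) and Txnrd1 (0.06 ± 0.05) were all without a call. The median difference was 0.12 over the 9 genes and 0.03 over all genes. Under the other scalings the share of higher genes among all calls ran from 45.0% to 70.6%, against 69.3% here.

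Against scr, 4 of the 9 genes were called in siLoxL1 (Akr1c18, Fmo2 and Gda higher, Txnrd1 lower), where 62% of all genes were called, 41.5% higher and 20.5% lower. In siLoxL2, 6 were called (the same with Nqo1 and Gclc lower), where 61.1% of all genes were called, 39.4% higher and 21.7% lower. Groups did not overlap in 58.2% of all genes for siLoxL1 and in 57.3% for siLoxL2. The median difference of the 9 genes was 0.06 in siLoxL1 and -0.06 in siLoxL2, against 0.19 and 0.17 over all genes. Other scalings moved that median of all genes by -0.27 to -0.11 in siLoxL1 and by -0.25 to -0.09 in siLoxL2, and gave a share of higher genes among the calls of 45.3% to 55.9% in siLoxL1, against 66.9% here, and of 43.8% to 55.0% in siLoxL2, against 64.5% here. Under the other scalings, Gclc in siLoxL2 ran from -0.35 to -0.13 and Nqo1 from -0.34 to -0.12, with both calls lost with normexp.

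Single arrays carried part of the spread. In siLoxL1, replicate 1 was the lowest array for 7 of the 9 genes and the highest for Hmox1. In siLox, replicate 4 was lowest for 7 of the 9 genes and highest for Gda, and in siLoxL2 replicate 4 was lowest for 6 and highest for Hmox1. The arrays of scr shared the lowest place among replicates 1, 2 and 3.

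Other genes of these pathways were counted in 9 lists that leave the 10 enzymes out, 164 genes tested of 177. The lists share some genes, such as Slc7a11 and Ephx1, which count in each of their lists but only once in the 164. In siLox against scr, 22 were higher and 45 lower (40.9% called, against 25% of all genes), with a median difference of -0.16. The lists were chosen with earlier results of these data known, so nothing is read from their shares against all genes, here or below. The count of 67 became 23 to 33 without siLox replicate 1, 2 or 3 or scr replicate 2 or 3. Of the NRF2 regulators 5 of 13 were higher and 1 lower. Nfe2l2 itself was higher by 0.46 ± 0.09 (limma adjusted p = 0.017) and so were the small MAF genes Maff (0.71 ± 0.20, limma adjusted p = 0.0378) and Mafg (0.36 ± 0.06, limma adjusted p = 0.0109), partners of NRF2, while Btrc, a substrate adaptor in a second route of NRF2 degradation, was lower (-0.55 ± 0.08, limma adjusted p = 0.00774, and -0.10 at its second probe). Mafg and Btrc were past the threshold in 8 of 8 fits that left out an array, Nfe2l2 in 5 and Maff in 2.

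**Figure D4:**
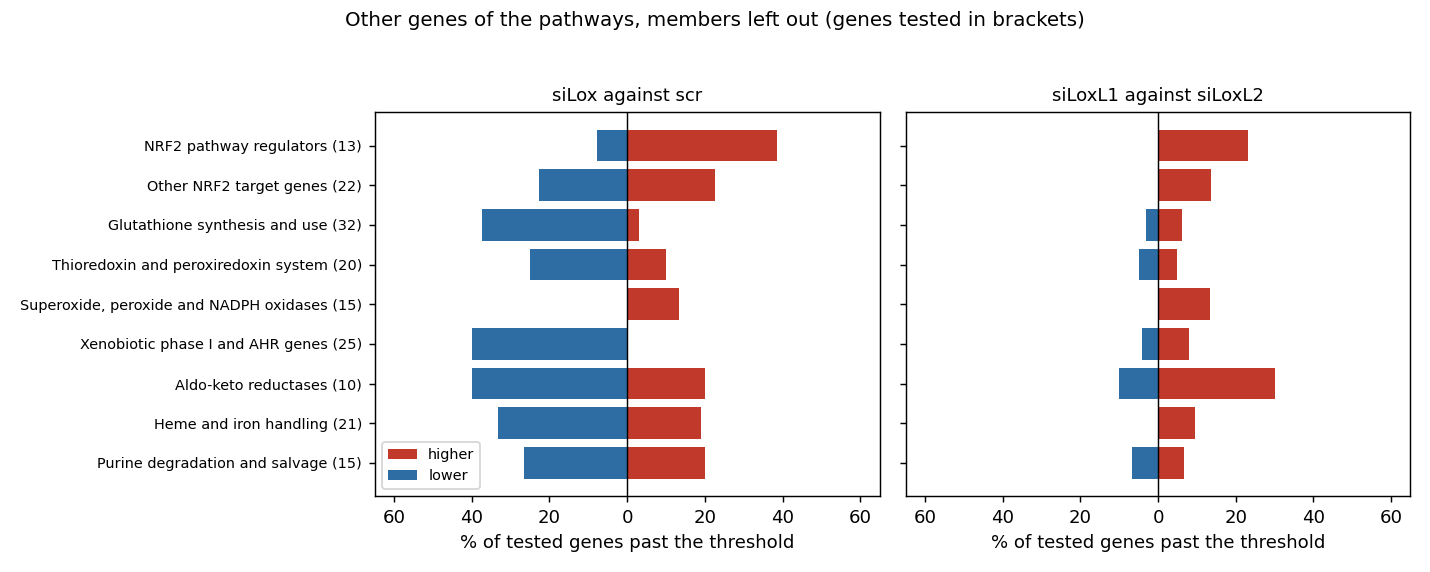
Share of the tested genes of each pathway list that were past the threshold (limma, adjusted over all genes), higher to the right in red and lower to the left in blue, in siLox against scr (left) and siLoxL1 against siLoxL2 (right); the 10 enzymes are left out and the number of genes tested stands in brackets. In siLox against scr, 12 of 32 glutathione genes and 10 of 25 xenobiotic genes lie on the lower side, against 1 and 0 on the higher side.

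Of 22 other NRF2 targets, 5 were higher and 5 lower in siLox than in scr, with no common direction. Taldo1, transaldolase of the pentose phosphate pathway, was higher by 1.39 ± 0.11 (limma adjusted p = 0.00123) and Slc7a11, the cystine importer that feeds glutathione synthesis, by 0.93 ± 0.11 (limma adjusted p = 0.00476). Ephx1, the microsomal epoxide hydrolase, was lower by -0.82 ± 0.13 (limma adjusted p = 0.00903). Each of these 3 was past the threshold in 8 of 8 fits that left out an array.

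Of the glutathione and xenobiotic genes past the threshold in siLox, nearly all were lower, while 19 of 32 and 15 of 25 did not pass. In the glutathione list 1 gene of 32 was higher (Slc7a11) and 12 were lower, among them the transferases Gstt1 (-1.24 ± 0.26, limma adjusted p = 0.0177), Mgst3 (-0.66 ± 0.14) and Gstt3 (-0.63 ± 0.15), which were past the threshold in 4, 3 and 3 of 8 fits that left out an array. In the xenobiotic list 10 of 25 were lower and none higher by limma, against 14 lower and 1 higher at an unadjusted p under 0.05. The retinaldehyde dehydrogenase Aldh1a1 fell by 1.13 (SE 0.13, limma adjusted p = 0.00456), the carbonyl reductase Cbr2 by 1.48 (SE 0.23) and the alcohol dehydrogenase Adh1 by 1.35 (SE 0.27). The second probe of Cbr2 gave -0.60. Aldh1a7 was lower by -1.66 ± 0.27, with 2 of 4 siLox arrays above background. With normexp the differences were -0.94 for Cbr2, -0.58 for Adh1 and -0.61 for Aldh1a7.

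Among the thioredoxin and peroxiredoxin genes 2 of 20 were higher and 5 lower. Txnrd3, the thioredoxin-glutathione reductase related to Txnrd1, was higher by 0.63 ± 0.11 (limma adjusted p = 0.0114), and Txndc12 (-0.58 ± 0.09), Msrb3 (-0.57 ± 0.13) and Msrb2 (-0.54 ± 0.11) were lower. Txnrd3 and Txndc12 were past the threshold in 8 of 8 fits that left out an array, Msrb3 and Msrb2 in 4. Of the superoxide, peroxide and NADPH oxidase genes 2 of 15 were higher and none lower, against 4 higher and 3 lower at an unadjusted p under 0.05. These were Sod2, the mitochondrial superoxide dismutase (0.27 ± 0.06), and Ncf1, a cytosolic subunit of the phagocyte oxidase (1.37 ± 0.36, or 0.44 with normexp, with 2 of 4 scr arrays above background), past the threshold in 3 and 1 of 8 fits that left out an array.

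Aldo-keto reductases went both ways, 2 of 10 higher and 4 lower. Akr1c19, of the same cluster as Akr1c18, rose by 2.04 ± 0.38 (limma adjusted p = 0.014, and 1.13 with normexp), and Akr1b8 by 0.37 ± 0.05 (limma adjusted p = 0.00662), while Akr7a5 (-0.32 ± 0.07) and Akr1b3 (-0.21 ± 0.06) were lower. In the heme and iron list 4 of 21 were higher and 7 lower. Blvrb, biliverdin reductase B (0.42 ± 0.06), and Hpx, hemopexin (1.06 ± 0.24), were higher, and Slc40a1, the iron exporter ferroportin (-1.04 ± 0.15), was lower. In the purine list 3 of 15 were higher and 4 lower, with Gmpr, GMP reductase, lower by -1.19 ± 0.18 and Nt5c2, a cytosolic nucleotidase, higher by 0.38 ± 0.07. Impdh1 (-0.40 ± 0.09) and Adk (-0.40 ± 0.12) were lower too. When an array was left out, Adk and Akr1b3 were past the threshold in 1 of 8 fits, Impdh1 in 3, Hpx in 4 and Akr7a5 in 5. Akr1c19, Akr1b8, Blvrb, Slc40a1, Gmpr and Nt5c2 were past it in 8 of 8.

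In siLoxL1 against siLoxL2, 17 of the 164 genes were higher and 5 lower (13.4% called, against 8.81% of all genes), and with quantile normalization 8 were higher and 6 lower. With the replicate number as a block, 5 of the 164 genes were called in either direction. Bach1, the repressor at the ARE (0.26 ± 0.05, limma adjusted p = 0.0176), Mafg (0.23 ± 0.05) and Nfe2l2 (0.21 ± 0.05, limma adjusted p = 0.0366) were the 3 of 13 regulators that were higher, while the other 3 probes of Mafg gave -0.03, 0.07 and 0.10. Ptgr1 (0.31 ± 0.06), Cbr3 (0.29 ± 0.05) and Txn1 (0.21 ± 0.05) were the 3 of 22 targets that were higher, with none lower by limma, against 10 higher and 1 lower at an unadjusted p under 0.05. Of the regulators none was lower by limma, nor at an unadjusted p under 0.05, where 5 were higher. These 6 genes were past the threshold in 1 to 6 of 8 fits that left out an array, and the count of 22 became 1 to 12.

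The other lists held 2 to 4 calls each in that comparison. The glutathione list had 2 of 32 higher, Gsta3 (0.45 ± 0.08) and Glrx3 (0.15 ± 0.03), and 1 lower, Chac1 (-0.31 ± 0.06), which breaks glutathione down. The thioredoxin list had 1 of 20 higher (Txn1) and 1 lower, Txndc12 (-0.25 ± 0.05), and the oxidase list had 2 of 15 higher, among them Sod2 (0.14 ± 0.03). The xenobiotic list had 2 of 25 higher, Cbr3 and Por (0.19 ± 0.04), and 1 lower, Adh1 (-0.30 ± 0.06). The aldo-keto reductases had 3 of 10 higher, Akr1c19 (0.43 ± 0.09), Akr1c13 (0.21 ± 0.05) and Akr1b8 (0.19 ± 0.04), and 1 lower, Akr1c14 (-0.38 ± 0.08). When an array was left out, Gsta3 was past the threshold in 6 of 8 fits, Akr1c19 in 3, and Akr1c14 and Txndc12 in 2. Chac1, Adh1, Akr1c13 and Akr1b8 were past it in 1 of 8, and Glrx3, Sod2 and Por in 0 of 8. With normexp Akr1c19 was 0.27, and with quantile normalization Nfe2l2, Glrx3, Sod2, Por and Akr1b8 were 0.14, 0.094, 0.091, 0.12 and 0.12.

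Flvcr1, a heme exporter, was higher in siLoxL1 by 0.32 ± 0.04 (limma adjusted p = 0.00819) and was past the threshold in 8 of 8 fits that left out an array. With Uros (0.18 ± 0.04, or 0.015 at its second probe) it made 2 of 21 heme and iron genes, and Uros was past the threshold in 1 of 8 such fits. The purine list had Hprt (0.20 ± 0.04) higher and Pnp (-0.23 ± 0.04) lower, 1 each of 15. They were past the threshold in 5 and 2 of 8 such fits.

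Against scr, most listed genes were called in both groups of slide 2, in comparisons that share the scr arrays and the slide. In siLoxL1 90 of 164 were higher and 28 lower (72%, against 62% of all genes), and in siLoxL2 84 were higher and 33 lower (71.3%, against 61.1%). The glutathione list had 20 of 32 higher and 3 lower in siLoxL1 and 21 higher and 4 lower in siLoxL2. These counts move with the scaling, and with quantile normalization 66 were higher and 40 lower in siLoxL1, and 66 higher and 42 lower in siLoxL2. Gstt1 was higher by 1.46 ± 0.22 in siLoxL1 and 1.52 ± 0.23 in siLoxL2, and Mgst3 by 1.45 ± 0.10 and 1.55 ± 0.11. Adh1 was higher by 2.56 ± 0.25 and 2.86 ± 0.26, and Akr1b8 by 1.46 ± 0.05 and 1.27 ± 0.05.

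The regulators showed no common direction there, with 4 of 13 higher and 4 lower in siLoxL1 and 3 higher and 6 lower in siLoxL2. Maff was higher by 1.56 ± 0.19 and 1.43 ± 0.19. Sqstm1, the adaptor that removes KEAP1, was lower by -0.92 ± 0.09 and -0.80 ± 0.09, while its second probe gave -0.01 and 0.17. Of the 22 other targets 14 were higher and 3 lower in siLoxL1 and 10 higher and 3 lower in siLoxL2, with Taldo1 higher by 1.51 ± 0.10 and 1.41 ± 0.11.

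In the remaining lists more genes were higher than lower against scr, where 41.5% of all genes were higher in siLoxL1 and 39.4% in siLoxL2. In siLoxL1 and in siLoxL2, the counts higher and lower were 13 and 3, then 10 and 2, of 20 thioredoxin genes, and 8 and 1, then 7 and 1, of 15 oxidase genes. They were 12 and 6, then 11 and 7, of 25 xenobiotic genes, and 4 and 2, then 3 and 2, of 10 aldo-keto reductases. They were 13 and 3, then 13 and 4, of 21 heme and iron genes, and 7 and 4, then 9 and 5, of 15 purine genes. Tfrc, the transferrin receptor, was higher by 1.22 ± 0.07 in siLoxL1, with 0.65 and 0.86 at its other probes, and Ampd3, AMP deaminase, was lower by -1.97 ± 0.13 in siLoxL1 and -1.60 ± 0.13 in siLoxL2. Cyp2f2, a cytochrome of lung epithelium, was above background on 0 scr arrays and at least 1.38-fold higher in siLoxL1 and 1.46-fold higher in siLoxL2, a direction that turned with a normexp background correction.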

How the data were processed

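Arrays were grouped by their labels. The deposited scanner values are, per the file headers, intensity values per spot, background subtracted by Agilent Feature Extraction 10.7.3.1 (version per the submitters' processing notes), with flags of 0 or 1 for outliers, saturation and signals above background. The authors' deposited value table, an alternative, holds log2 values normalized between arrays. Its scale and nearly identical column distributions, as quantile normalization gives, were found from the values, and how it was made was not stated. Outlier spots were dropped, spots of a probe averaged, and log2 values taken relative to the 75th percentile of each array. A probe stayed only if some group had it well above background on each of its 4 arrays, and a gene was read at its brightest probe. Gene names were looked up through RefSeq accessions, which matched 50.3% of the probes, and 1651 probes took a changed name. Where 0 arrays of a group were above background, a fold is a lower bound, from the higher of the value and the lowest detected signal of each array.

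Genes were tested with limma 3.58.1 in R 4.3.3 (lmFit, eBayes) on the 8 arrays of the groups compared, adjusted by Benjamini-Hochberg over 22644 genes, with a threshold of 0.05; the fit was tested on simulated data. A fit of all 16 arrays served as an alternative, because the median SD within groups was 0.163 on slide 1 and 0.0969 on slide 2. Each array was left out in turn. Other alternatives were normexp (offset 50), quantile normalization, scaling over detected probes, other filters, single probes and the replicate number as a block.

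The enzymes, the lists (NRF2 regulators, other NRF2 targets, glutathione, thioredoxin, oxidases, xenobiotic genes, aldo-keto reductases, heme and iron, purines) and the markers were chosen with earlier results of these data known. Named genes are the 10 enzymes, the targeted genes and, per list, up to 4 genes past the threshold without overlap by largest difference within a slide (2 between slides); Akr1c13 in the comparisons with scr and Fmo5 are named beside them as a chromosome neighbour and a relative, chosen after their values were seen. Some genes are not reported here. The same-numbered arrays deviated together at r = -0.19 to -0.002 for siLox and scr and 0.04 to 0.22 for siLoxL1 and siLoxL2. Each siLoxL1 array was closest to the siLoxL2 array of its own number. Since replicate 4 reached only 0.04 and the labels name no pairs, the main fits did not take the numbers as pairs.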

Additional observations from a re-analysis of the deposited data

Results flagged for a closer look

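Each group of 4 arrays was checked for an array whose gap to the nearest other is a large part of the whole range of the group, and 5 of 64 groups had one, where chance gives about 1 in 20. Srxn1 stood at 6.08 on siLox replicate 4, below the 6.15 to 6.17 of the other siLox arrays, and at 5.49 on siLoxL2 replicate 1, below the 5.68 to 5.70 of the others. Txnrd1 stood at 5.78 on siLoxL1 replicate 1, below 5.86 to 5.87. The later Fmo1 probe stood at -1.05 on siLoxL2 replicate 1, above -7.91 to -7.44, while the earlier Fmo1 probe read -8.23 on that array. Loxl1 stood at 5.65 on siLoxL2 replicate 1, below 5.78 to 5.80.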

How the results depend on the processing

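The number of arrays and, for Fmo1, Fmo2 and the second Gda probe on slide 1, signals near background limit these results. The direction of Akr1c18, Fmo2, Gda and Txnrd1 against scr in siLoxL1 and siLoxL2 and their calls held in every alternative that gave a value, and Srxn1 in siLox against scr was past the threshold in 16 of 17, all but the replicate block. Where a value changed, the cause was not tested unless fewer arrays or other genes entered.

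In siLox against scr, 3 of the enzymes, 5655 genes and 67 other pathway genes were past the threshold. A fit of all 16 arrays gave 6, 9745 and 103, no filter on dim probes gave 1, 2969 and 41, and leaving out replicate 4 of both groups, chosen after seeing the data, gave 6 enzymes. In siLoxL1 against siLoxL2 the counts were 1, 1994 and 22. They were 0, 905 and 9 with all 16 arrays, 0, 647 and 3 with no filter, and 0, 166 and 0 without replicate 4 of both groups. With quantile normalization and with the authors' table they were 0 enzymes and 14 other genes, with scaling over detected probes 0 and 13, with single probes 0, and with probes detected on all 8 arrays 2 enzymes. At an unadjusted p under 0.05 the settings with 0 enzymes had 1 to 3, and the one with 0 other genes had 43. With no filter, 21473 genes were called in siLoxL1 against scr, where the count was 14035, and 20789 in siLoxL2 against scr, where it was 13842.

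Leaving out one array gave 1 to 5 enzymes, 1830 to 7828 genes and 23 to 95 other pathway genes in siLox against scr, and 0 to 1, 609 to 1409 and 1 to 12 in siLoxL1 against siLoxL2. It gave 4 to 5, 12681 to 14737 and 111 to 125 in siLoxL1 against scr and 5 to 6, 12317 to 14530 and 106 to 122 in siLoxL2 against scr.

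With the replicate number as a block, 0 enzymes, 3 genes and 0 other pathway genes were past the threshold in siLox against scr, with 3, 7191 and 74 at an unadjusted p under 0.05. The block gave 1, 853 and 5 in siLoxL1 against siLoxL2, 4, 13039 and 112 in siLoxL1 against scr and 5, 12978 and 111 in siLoxL2 against scr. Each siLoxL1 array correlated best with the siLoxL2 array of its own number. Same-numbered arrays also share a column of the slide, so number and column cannot be told apart. The labels do not say that they are pairs. The slide as a block could not be run, since it is constant within a slide and the same as the groups between slides.

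Small differences changed direction. In siLox against scr, Nqo1 (-0.03) was 0.0889 with normexp and -0.0709 to 0.0251 with one array left out, above 0 without siLox replicate 4 or scr replicate 1. In siLoxL1 against siLoxL2, Gda (0.05) was -0.0011 with normexp, -0.0083 with quantile normalization and -0.0080 with the authors' table, and Hmox1 (-0.63) was 0.0429 without replicate 4 of both groups. In siLoxL1 against scr, with quantile normalization, the authors' table and scaling over detected probes, Gclc was -0.18, -0.18 and -0.11 and Gclm -0.0641, -0.0646 and -0.0737, and Srxn1 was -0.15 with quantile normalization and with the authors' table. Gclc was -0.0297 to 0.0943 with one array left out, below 0 without siLoxL1 replicate 2 or 3 or scr replicate 3. In siLoxL2 against scr, Gclm was 0.0244 with normexp, and Srxn1 was -0.21 with quantile normalization and the authors' table, -0.0674 with scaling over detected probes and -0.0156 to 0.0800 with one array left out, below 0 without scr replicate 1.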
